A study of Mus musculus with 12 samples.

Results

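Metallothioneins and genes of zinc transport were followed in 2 mouse testis cell lines given shRNAs against the M5 muscarinic acetylcholine receptor, which the gene Chrm5 encodes. The 8 genes are Mt1, Mt2, Mtf1, Slc30a1, Slc30a5, Slc39a1, Slc39a10 and Slc39a14, of 17995 genes in the expression table, and all 8 had values in every library and passed the filter on low values. They were chosen by name with earlier results of the same 12 libraries in view, among them a lower Mt2 in C18-4 cells with shM5. The differences given here therefore describe these genes, and the adjusted p-values, which come from fits over all genes, are not independent evidence for them.

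C18-4 is a line of mouse spermatogonial stem cells and TM4 is a line of mouse Sertoli cells, the somatic cells that nurse germ cells in the seminiferous tubule; the labels give the strain of both as IRC. Each line carried either a control shRNA (shNC) or a mix of shRNAs against M5 (shM5), delivered by lentivirus and kept as stably changed cells, which gave 4 groups of 3 libraries. The age, sex and time after infection are not in the labels, and the labels do not say that the 3 libraries of a group came from separate cultures, so the p-values measure the spread between these libraries, which may be technical. C18-4 cells were grown in DMEM/F12 and TM4 cells in DMEM, so the line and its medium cannot be told apart. The target itself could not be checked, because Chrm5 was listed between 0 and 0.01 RPKM (reads scaled to gene length and to mapped reads) in the 12 libraries.

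The markers did not bear out the label of C18-4 cells, and those of TM4 cells were mixed. Of 12 spermatogonial markers with values, 10 were below 1 RPKM in all 6 C18-4 libraries, Gfra1, Zbtb16, Dazl and Ddx4 among them. Of those above 1 RPKM in either line, Id4 was higher in C18-4 cells (1.64 to 4.71 against at most 0.2 RPKM). Etv5 was higher in TM4 cells (5.98 to 7.49 against 1.63 to 2.29 RPKM), as was Bcl6b (3.56 to 9.66 against at most 0.09 RPKM). Wt1, a Sertoli cell factor, lay between 53.93 and 72.32 RPKM in C18-4 cells and at or below 0.15 RPKM in TM4 cells. TM4 cells held Sox9 between 1.11 and 1.74 RPKM, and 6 of 13 Sertoli markers were below 1 RPKM in all 6 TM4 libraries. In TM4 cells, shNC replicate 3 stood at a root mean square distance of 0.202 to 0.257 (log2 scale, over genes) from the shM5 libraries and of 0.640 and 0.642 from the other shNC libraries. Its values thus lay with the shM5 libraries and against its label; whether it is a mislabelled shM5 library, or whether shNC replicates 1 and 2 stand apart for another reason, cannot be told apart in these data, and every difference between shM5 and shNC in TM4 cells, with or without it, is to be read with that limit. The summed level of 12 genes of the ATF4 stress response was 2481 and 2464 RPKM in TM4 shNC replicates 1 and 2 and between 1175 and 1250 RPKM in the other 4 TM4 libraries. In C18-4 cells the same sum was 1637 and 1562 RPKM in replicate 3 of shNC and shM5 and between 1067 and 1133 RPKM in the other 4 libraries. The results in TM4 cells are therefore given with and without shNC replicate 3, and those in C18-4 cells with and without the replicate number as a block; the part of the stress response in any of them was not tested.

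Zinc is a structural or catalytic part of many proteins, but the free ion is kept scarce in the cytosol. Metallothioneins are small cysteine-rich proteins that bind zinc, copper and cadmium. The transcription factor MTF1 senses zinc and switches on the metallothionein genes and the zinc exporter gene Slc30a1 through short metal response elements in their promoters. Proteins of the SLC30 (ZnT) family move zinc out of the cytosol, into organelles or out of the cell, while those of the SLC39 (ZIP) family move it into the cytosol. In the testis, zinc is needed for the development of germ cells, and metallothioneins are made in both germ and Sertoli cells.

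The promoters of the metallothionein genes and of Slc30a1 are shown because these are the best known targets of MTF1. Mt2 and Slc30a1 were both lower in the TM4 libraries with shM5, and both were lowest of the shNC group in replicate 3. In shNC replicate 3 Slc30a1 lay next to the shM5 libraries (1.91 against at most 1.84 RPKM). Mt2 was at 70.46 RPKM there, against 104.66 and 89.37 RPKM in the other shNC libraries and at most 47.21 RPKM with shM5. A shared control by MTF1 was not tested. RefSeq promoter sequences (GRCm38.p6) matched 7 of the 8 genes, all except Slc39a14. Each window runs 280 bases in the direction of the gene, with 250 bases before the annotated start. Capitals mark the core of the metal response element, searched as TGCGCNC and TGCACNC on both strands, with overlapping matches counted separately. The windows are chr8:94172368-94172647 for Mt2, chr8:94178839-94179118 for Mt1 and chr1:191906531-191906810 for Slc30a1, all on the plus strand.
Mt2: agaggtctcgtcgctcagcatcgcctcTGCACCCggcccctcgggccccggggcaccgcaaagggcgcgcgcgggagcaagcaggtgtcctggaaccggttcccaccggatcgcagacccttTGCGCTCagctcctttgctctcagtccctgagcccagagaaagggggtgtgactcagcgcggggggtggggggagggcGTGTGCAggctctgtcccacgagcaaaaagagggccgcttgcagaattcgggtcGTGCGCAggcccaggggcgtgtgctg
Mt1: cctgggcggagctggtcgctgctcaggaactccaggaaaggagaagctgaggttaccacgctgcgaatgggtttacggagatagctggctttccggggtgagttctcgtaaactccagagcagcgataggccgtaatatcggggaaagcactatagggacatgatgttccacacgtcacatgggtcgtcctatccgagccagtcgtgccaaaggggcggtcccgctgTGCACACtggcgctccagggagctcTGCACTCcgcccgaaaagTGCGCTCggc
Slc30a1: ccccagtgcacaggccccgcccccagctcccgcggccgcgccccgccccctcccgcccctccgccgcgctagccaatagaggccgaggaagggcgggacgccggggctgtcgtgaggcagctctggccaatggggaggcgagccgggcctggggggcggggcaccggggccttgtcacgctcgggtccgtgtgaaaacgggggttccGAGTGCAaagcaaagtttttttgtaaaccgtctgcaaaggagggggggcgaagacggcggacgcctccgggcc
The Mt2 window held 4 matches, at bases 28, 123, 201 and 255 counted from its 5′ end, and the Mt1 window 3, at bases 228, 253 and 271. The Mt2 match at 255 and the Mt1 matches at 253 and 271 lie after the annotated start. Of 32851 RefSeq promoters of 300 bases, 1.969% held at least 3 matches and 0.5175% at least 4. The windows of Mt2 and Mt1 begin 6471 bases apart on chromosome 8. The Slc30a1 sequence shown held 1 match, at base 208, and a further match lies at base 281 of its 300 bases; 7.114% of promoters held at least 2. The promoter of Slc30a5 held 1 match, where 25.7% of promoters held at least 1, and the promoters of Mtf1, Slc39a1 and Slc39a10 held 0. Outside the 8 genes, the promoters of Slc30a4 and Slc30a10 also held 3 matches each, and that of Slc30a2 held 2. The other metallothionein, SLC30 and SLC39 promoters searched held at most 1. These matches describe the letters and were not tested as binding sites.

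With shM5, Mt2 was lower in both lines, Mt1 was lower in C18-4 cells, and Slc39a10, a zinc importer, was lower in C18-4 cells and higher in TM4 cells. In C18-4 cells none of the 8 genes passed limma's test at an adjusted p of 0.05 without a block (3 of 8 at an unadjusted p under 0.05), where 0.586% of all genes tested did. With the replicate block, Mt2, Mt1 and Slc39a10 passed, 3 of 8, where 11.9% of all genes did. In TM4 cells 0 of 8 passed in the 6 libraries (4 of 8 at an unadjusted p under 0.05), where 0% of all genes did, and 5 of 8 passed without shNC replicate 3, where 67.4% of all genes did. The median log2 fold change of the 8 genes was -0.13 in C18-4 cells and 0.05 in TM4 cells without shNC replicate 3, beside -0.0024 and 0.04 over all genes.

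**Figure D1:**
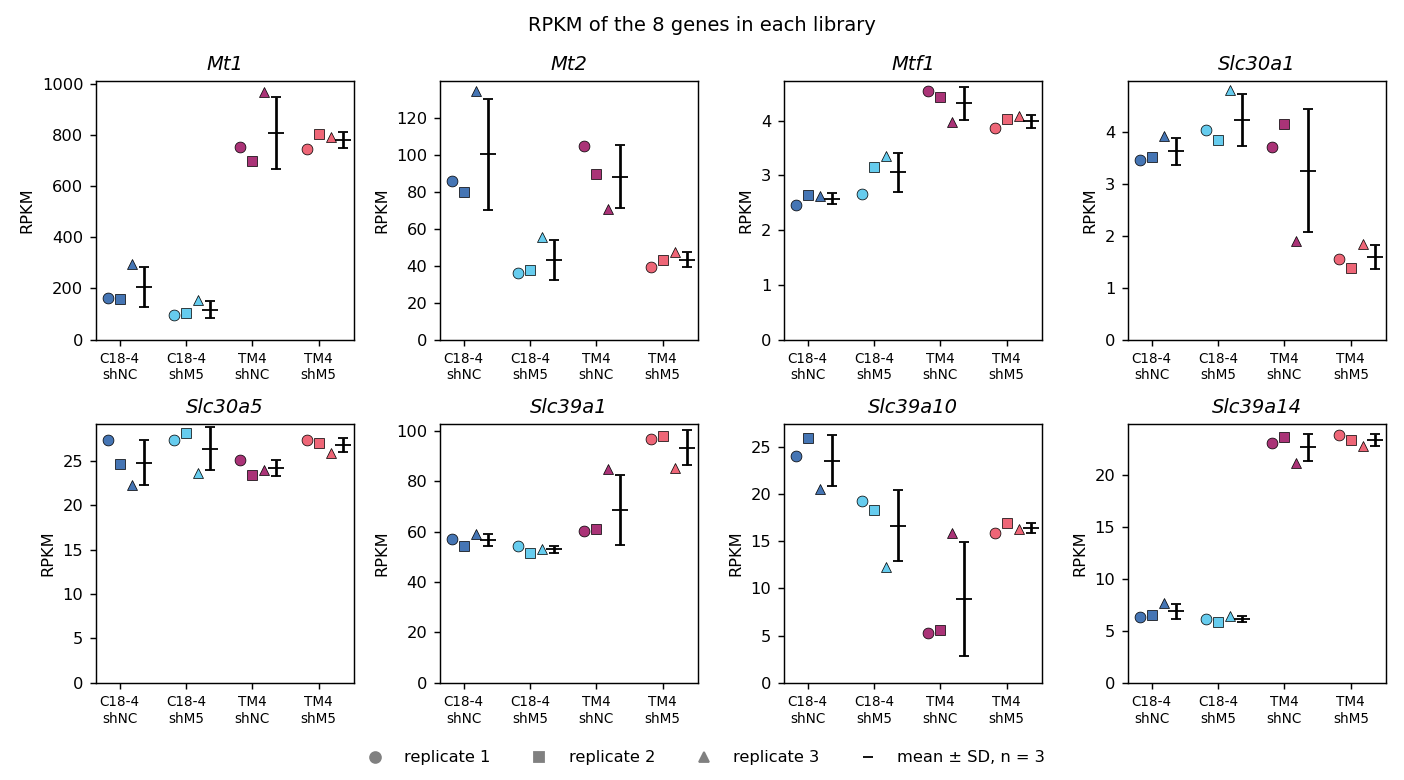
RPKM of each of the 8 genes in the 12 libraries, by group, with the replicate number as the symbol and the mean ± SD of 3 libraries beside each group. Mt2 with shM5 lies below shNC in both lines, and in TM4 cells shNC replicate 3 (triangle) lies near the shM5 libraries for Slc30a1, Slc39a1 and Slc39a10.

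Mt2 (metallothionein 2, gene ID 17750) measured 85.65, 80.12 and 134.78 RPKM in C18-4 shNC replicates 1 to 3 and 35.91, 37.53 and 55.68 RPKM in the shM5 libraries. Every shM5 library lay below every shNC library, and replicate 3 was the highest of its group in both. The means were 100.2 ± 30.1 RPKM with shNC and 43.0 ± 11.0 RPKM with shM5 (SD, n = 3), a ratio of 0.430. The log2 fold change was -1.21 with a standard error of 0.24 and an adjusted p of 0.0985 (limma), and with the replicate block the standard error was 0.054 and the adjusted p 0.000158. In TM4 cells Mt2 measured 104.66, 89.37 and 70.46 RPKM with shNC and 39.50, 43.10 and 47.21 RPKM with shM5. The groups again did not overlap, and shNC replicate 3 was the lowest shNC library but lay well above the shM5 libraries. Its change was -1.01 on the log2 scale with a standard error of 0.16 (adjusted p = 0.192), and without shNC replicate 3 Mt2 fell by 1.16 on the log2 scale (adjusted p = 2.11e-05).

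Mt1 (metallothionein 1, gene ID 17748) was the most abundant of the 8 genes in both lines. In C18-4 cells it measured 161.15, 159.25 and 295.40 RPKM with shNC and 95.03, 102.26 and 154.76 RPKM with shM5, so that the groups did not overlap, though shM5 replicate 3 came close to the lowest shNC library. Replicate 3 was the highest of both groups, as it was for the summed ATF4 genes. Mean levels were 205.3 ± 78.1 and 117.3 ± 32.6 RPKM (SD, n = 3). Its log2 fold change was -0.78 with a standard error of 0.28 (adjusted p = 0.323), and with the replicate block the adjusted p was 0.000879. Leaving out shNC replicate 3, the highest library, brought it to -0.48, and over all 6 libraries left out in turn it ranged from -0.99 to -0.48. TM4 libraries gave 754.01, 699.89 and 967.01 RPKM with shNC and 745.96, 802.88 and 790.83 RPKM with shM5. These groups overlapped, and the difference was smaller than the spread between libraries, with a log2 fold change of -0.04 and a 95% interval from -0.33 to 0.26 (adjusted p = 0.841). Without shNC replicate 3, the highest of the 6 libraries, the value was 0.10 (adjusted p = 0.109).

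The level of Mt1 relative to Mt2 separated the 4 groups. The Mt1 to Mt2 ratio of RPKM was 1.88, 1.99 and 2.19 in C18-4 shNC libraries and 2.65, 2.72 and 2.78 in C18-4 shM5 libraries. In TM4 cells it was 7.20, 7.83 and 13.7 with shNC and 18.9, 18.6 and 16.8 with shM5. The ratio was thus higher with shM5 in every library of both lines, and higher in every TM4 library than in any C18-4 library; shNC replicate 3 of TM4 lay between the other shNC libraries and the shM5 libraries. Together Mt1 and Mt2 made up 0.0250% to 0.0839% of the summed RPKM in C18-4 cells and 0.147% to 0.193% in TM4 cells. The read length is not known. At the 2 mismatches that the authors state, reads of these paralogs could be confused only in part. Of 569 windows of 35 bases along the Mt2 transcripts, 7 came within 2 mismatches of an Mt1 transcript. Of 554 windows of 50 bases 0 did, the fewest mismatches being 5. The aligner parameters that the authors print may allow more mismatches than they state, and this was not searched. The other metallothioneins were near or at the floor, with Mt3 listed at 0 in 11 libraries and 0.15 RPKM in 1 TM4 shM5 library, and Mt4 at 0 in all 12.

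**Figure D2:**
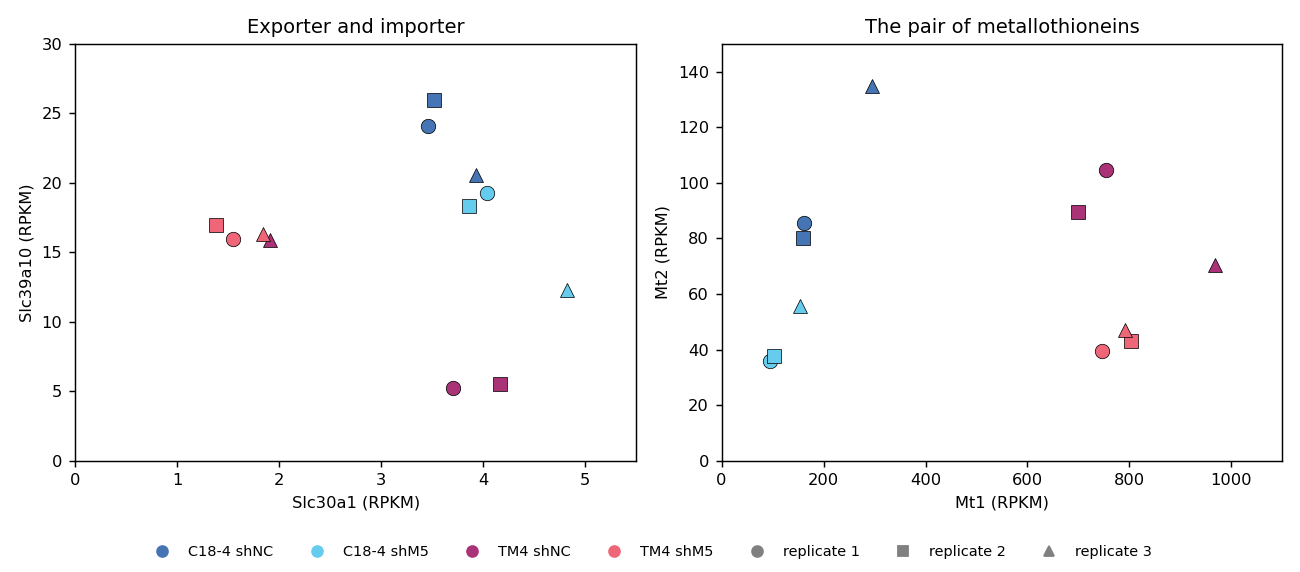
RPKM of the importer gene Slc39a10 against the exporter gene Slc30a1 (left) and of Mt2 against Mt1 (right), 1 point per library, coloured by group with the replicate number as the symbol. TM4 shNC replicates 1 and 2 stand alone at low Slc39a10 (5.26 and 5.54 RPKM) and high Slc30a1 (3.71 and 4.17 RPKM), and for the metallothioneins the TM4 libraries lie at higher Mt1 than the C18-4 libraries at like Mt2.

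Mtf1, the zinc-sensing transcription factor itself, was expressed at a low level and differed little with shM5. It measured 2.46, 2.64 and 2.62 RPKM in C18-4 shNC libraries and 2.66, 3.16 and 3.35 RPKM with shM5, with the shM5 libraries just above. The fitted difference was 0.23 (log2) with a standard error of 0.14 (adjusted p = 0.578, and 0.203 with the replicate block). In TM4 cells the values were 4.54, 4.44 and 3.98 RPKM with shNC and 3.86, 4.03 and 4.09 RPKM with shM5, which overlapped (log2 fold change -0.11, adjusted p = 0.458). Of 5 other genes linked to MTF1 (Csrp1, Gclc, Hif1a, Ndrg1 and Selenow), 0 passed in C18-4 cells without the block (limma, 0 at an unadjusted p under 0.05). With the block, where 11.9% of all genes passed, Ndrg1, Selenow and Hif1a fell by 0.40, 0.27 and 0.23 on the log2 scale (limma, adjusted p = 0.00364, 0.0175 and 0.0221). In TM4 cells 0 of 5 passed in the 6 libraries (3 at an unadjusted p under 0.05), and 4 of 5 fell without shNC replicate 3, all except Csrp1, in the fit where 67.4% of all genes passed. Ndrg1, a stress-induced growth regulator, measured 229.93, 226.78 and 119.99 RPKM in the TM4 shNC libraries and 101.24, 100.55 and 90.40 RPKM with shM5. Its shNC replicate 3 lay just above the shM5 range and far below shNC replicates 1 and 2.

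Slc30a1, the exporter of zinc across the plasma membrane, was lower with shM5 in TM4 cells and not in C18-4 cells. In TM4 cells it measured 3.71, 4.17 and 1.91 RPKM with shNC and 1.55, 1.38 and 1.84 RPKM with shM5. The groups did not overlap, but shNC replicate 3 was barely above the highest shM5 library. Over the 6 libraries the log2 fold change was -0.93 with a standard error of 0.30 (adjusted p = 0.192), and without shNC replicate 3 Slc30a1 fell by 1.26 on the log2 scale (adjusted p = 0.000174). In C18-4 cells it measured 3.46, 3.52 and 3.93 RPKM with shNC and 4.04, 3.86 and 4.82 RPKM with shM5. These ranges overlapped, at a log2 fold change of 0.21 (95% interval -0.10 to 0.52, adjusted p = 0.600, and 0.182 with the block).

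Slc30a5, a transporter that loads zinc into the early secretory pathway, differed little between the groups. It ranged from 22.36 to 27.40 RPKM with shNC and from 23.61 to 28.17 RPKM with shM5 in C18-4 cells, which overlapped (log2 fold change 0.09, adjusted p = 0.831). In TM4 cells the ranges were 23.48 to 25.16 RPKM with shNC and 25.93 to 27.43 RPKM with shM5, with every shM5 library above every shNC library. The log2 fold change there was 0.15 (adjusted p = 0.210), and without shNC replicate 3 it was 0.14 and just past the threshold (adjusted p = 0.0485). Among the other exporters, 5 of 6 with values passed the filter in at least 1 fit; 0 of the 5 passed without the block in C18-4 cells (limma, 1 at an unadjusted p under 0.05) or in the 6 TM4 libraries (1 of 4 tested). Slc30a3, which loads synaptic vesicles in neurons, measured 4.31, 4.67 and 5.78 RPKM in C18-4 shNC libraries and 1.50, 2.42 and 2.72 RPKM with shM5, and was listed at 0 in all 6 TM4 libraries. Its log2 fold change in C18-4 cells was -1.15 (adjusted p = 0.104, and 0.00283 with the block), close to that of Mt2. Slc30a4, another exporter to vesicles, measured 67.99, 71.81 and 37.85 RPKM in TM4 shNC libraries and 34.10, 32.90 and 40.31 RPKM with shM5. Without shNC replicate 3 it fell by 0.97 on the log2 scale (adjusted p = 4.07e-05), and Slc30a6 rose by 0.19 (adjusted p = 0.0451).

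Slc39a10, an importer at the plasma membrane, had groups apart in opposite directions in the 2 lines. In C18-4 cells it measured 24.07, 25.94 and 20.60 RPKM with shNC and 19.27, 18.37 and 12.32 RPKM with shM5. Replicate 3 was the lowest of its group in both, and the groups did not overlap. The log2 fold change was -0.52 with a standard error of 0.18 (adjusted p = 0.307, and 0.00948 with the block). Leaving out shM5 replicate 3, the lowest library, brought it to -0.32. TM4 libraries gave 5.26, 5.54 and 15.91 RPKM with shNC and 15.93, 16.99 and 16.29 RPKM with shM5. Here shNC replicate 3 lay next to the lowest shM5 library, and the shM5 mean was 3.04 times that of shNC replicates 1 and 2. With all 6 libraries the log2 fold change was 1.07 with a standard error of 0.41 (adjusted p = 0.192), and without shNC replicate 3 Slc39a10 rose by 1.59 with a standard error of 0.063 (adjusted p = 1.13e-06).

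The ratio of Slc39a10 to Slc30a1, importer to exporter, showed the same libraries apart. It was 6.96, 7.37 and 5.24 in C18-4 shNC libraries and 4.77, 4.76 and 2.56 with shM5. The TM4 ratios were 1.42, 1.33 and 8.33 with shNC and 10.3, 12.3 and 8.85 with shM5. TM4 shNC replicates 1 and 2 held the lowest of the 12 ratios, and they are also the libraries with the high sums of ATF4 response genes.

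Slc39a1, a widely expressed importer, was higher with shM5 in TM4 cells. It measured 60.23, 61.05 and 84.80 RPKM with shNC there and 96.69, 97.97 and 85.32 RPKM with shM5, so that shNC replicate 3 and shM5 replicate 3 were almost equal. This gave a log2 fold change of 0.46 with a standard error of 0.15 (adjusted p = 0.192), and without shNC replicate 3 Slc39a1 rose by 0.62 (adjusted p = 9.01e-05). In C18-4 cells it ranged from 54.42 to 58.99 RPKM with shNC and from 51.43 to 54.43 RPKM with shM5, which overlapped narrowly (log2 fold change -0.10, adjusted p = 0.630). Slc39a14, an importer of zinc and of iron, ranged from 6.33 to 7.72 RPKM with shNC and from 5.84 to 6.39 RPKM with shM5 in C18-4 cells. The TM4 ranges were 21.19 to 23.70 RPKM and 22.83 to 23.90 RPKM. Both pairs of ranges overlapped, and the log2 fold changes were -0.16 (95% interval -0.42 to 0.11, adjusted p = 0.663) and 0.05 (95% interval -0.14 to 0.23, adjusted p = 0.679).

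Of 9 other importers with values, Slc39a2 and Slc39a4 were below 1 RPKM in every library and 7 were tested. Without the block 0 of the 7 passed in C18-4 cells (limma, 2 at an unadjusted p under 0.05), and 0 passed in the 6 TM4 libraries (3 at an unadjusted p under 0.05). With the block, Slc39a6 rose by 0.34 in C18-4 cells (adjusted p = 0.00893). It measured 27.37, 27.70 and 32.86 RPKM with shNC and 34.95, 36.21 and 39.70 RPKM with shM5 there. In TM4 cells without shNC replicate 3, 4 of 7 passed, with Slc39a3 and Slc39a13 higher by 0.99 and 0.43 and Slc39a6 and Slc39a9 lower, at -0.67 and -0.31 (log2 scale). The other 12 exporters and importers thus held 6 that passed of 11 tested in TM4 cells, 3 higher and 3 lower, with a median log2 fold change of 0.12 beside 0.04 over all genes, in the fit where 67.4% of all genes passed. With the block in C18-4 cells 2 of 12 passed, where 11.9% of all genes did.

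**Figure D3:**
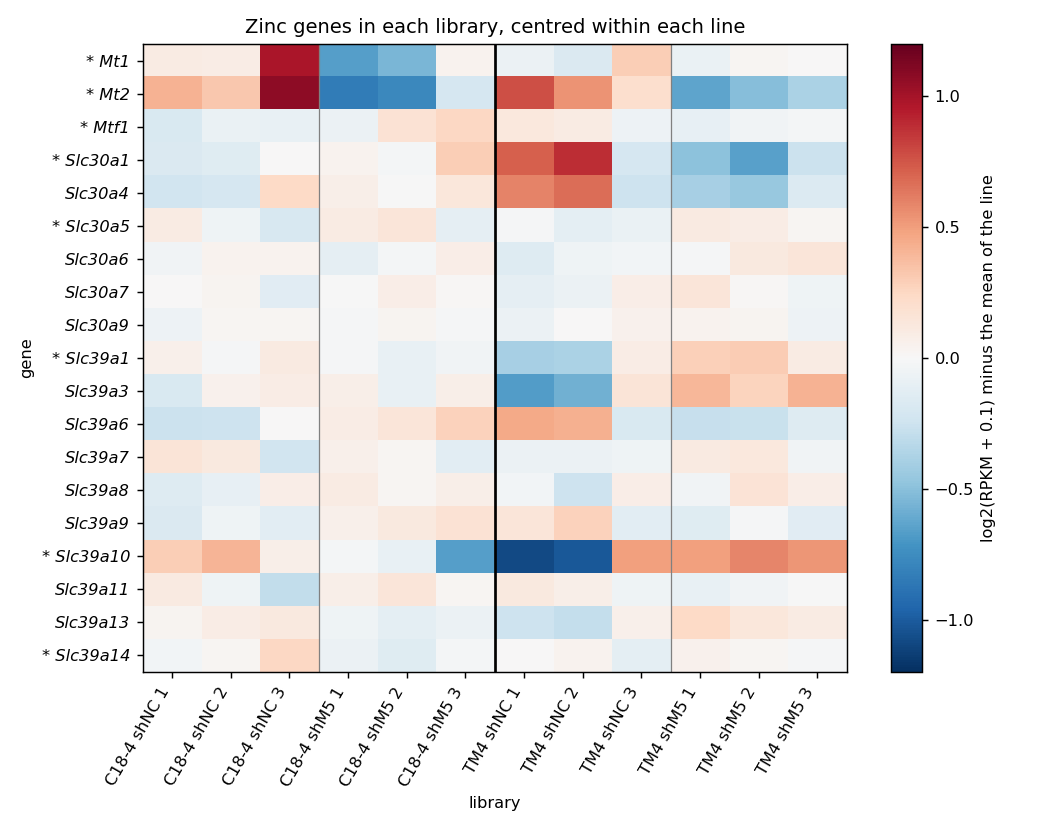
Heat map of log2(RPKM + 0.1) for the metallothionein, Mtf1, SLC30 and SLC39 genes whose mean reached 0.5 RPKM in each line, 1 column per library, centred on the mean of the 6 libraries of the line; asterisks mark the 8 genes. In TM4 cells Slc30a1, Slc30a4 and Slc39a6 are high and Slc39a1, Slc39a3 and Slc39a10 low in shNC replicates 1 and 2 alone, whereas Mt2 is high in all 3 shNC libraries.

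Counting libraries rather than fitting them, shM5 and shNC did not overlap for 4 of the 8 genes in C18-4 cells. Mt1, Mt2 and Slc39a10 were lower with shM5, where 9.55% of all genes tested were lower without overlap, and Mtf1 was higher, where 9.3% were. In TM4 cells 5 of the 8 did not overlap. Mt2 and Slc30a1 were lower there, against 11.1% of all genes, and Slc30a5, Slc39a1 and Slc39a10 were higher, against 15.7%.

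**Figure D4:**
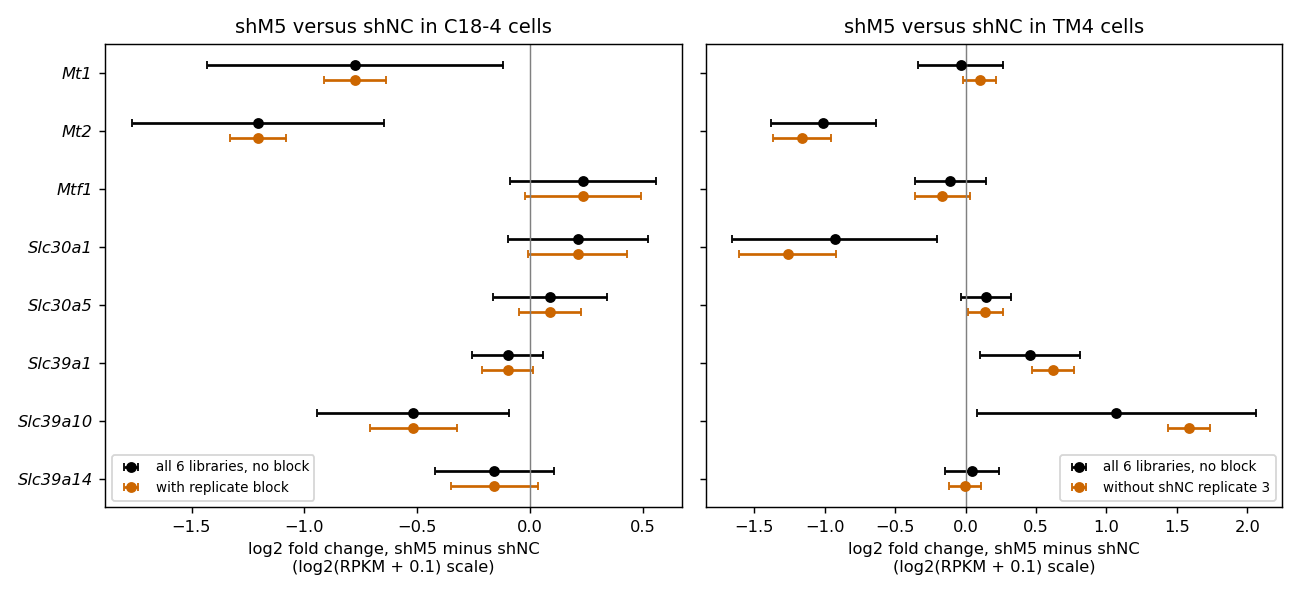
Log2 fold change of shM5 against shNC for the 8 genes in C18-4 cells (left) and TM4 cells (right), with 95% intervals from limma; black, all 6 libraries without a block; orange, the replicate block in C18-4 cells and the fit without shNC replicate 3 in TM4 cells. The interval of Mt2 lies below 0 in both lines and both fits, and Slc39a10 lies below 0 in C18-4 cells and above 0 in TM4 cells, a difference that did not pass its own test with all 12 libraries.

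Whether the shM5 effect differed between the lines was tested by the interaction over 12 libraries. Of the 8 genes 0 passed (limma, 3 of 8 at an unadjusted p under 0.05), where 0.102% of all genes did. The effect in TM4 cells minus that in C18-4 cells was 1.59 for Slc39a10 (SE 0.48, adjusted p = 0.182), -1.14 for Slc30a1 (SE 0.34, adjusted p = 0.181) and 0.56 for Slc39a1 (SE 0.17, adjusted p = 0.181). Without TM4 shNC replicate 3 these 3 genes passed, where 38% of all genes did, at 2.10, -1.48 and 0.72 (adjusted p = 0.000116, 0.000336 and 0.000292). The difference for Mt1 was 0.74 (adjusted p = 0.241, and 0.0707 without that library), so a response of Mt1 to shM5 that is particular to C18-4 cells was not shown. For Mt2 it was 0.20 with a 95% interval from -0.49 to 0.88 (adjusted p = 0.714).

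Between the lines, with both treatments averaged, TM4 cells held more Mt1, Slc39a14, Mtf1 and Slc39a1 and less Slc39a10 and Slc30a1 than C18-4 cells. These 6 of the 8 genes passed, where 73% of all genes did. Over all genes the median log2 difference of TM4 minus C18-4 was -0.14, so the values are also given after subtracting it. Mt1 was higher by 2.39 on the log2 scale (SE 0.17, adjusted p = 1.14e-07; 2.53 relative to the median), from 161.3 ± 72.0 RPKM in C18-4 cells to 793.4 ± 92.5 RPKM in TM4 cells (SD, n = 6), without overlap of any library. Slc39a14 differed by 1.81 (SE 0.067, adjusted p = 2.28e-10; 1.95 relative to the median), from 6.50 ± 0.65 to 23.0 ± 0.98 RPKM, also without overlap. Mtf1 differed by 0.55 (adjusted p = 7.52e-05; 0.69 relative to the median), and by 0.96 with quantile normalization. Slc39a1 differed by 0.53 (adjusted p = 0.000123; 0.67 relative to the median).

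Slc39a10 and Slc30a1 were each -0.79 (limma, adjusted p = 0.0117 and 0.00134), or -0.65 and -0.66 relative to the median. Their values, and that of Slc39a1, were unlike in the shNC and the shM5 libraries taken alone. The interaction of these genes did not pass with all 12 libraries, so a dependence on the treatment was not shown. In TM4 cells the shNC libraries were themselves split, with Slc39a10 at 5.26 and 5.54 RPKM in replicates 1 and 2 and 15.91 RPKM in replicate 3. In the shNC libraries alone, where 65.6% of all genes passed, Slc39a10 differed by -1.58 (adjusted p = 0.00167), Slc30a1 by -0.22 (adjusted p = 0.437) and Slc39a1 by 0.26 (adjusted p = 0.0777). In the shM5 libraries alone, where 61.1% passed, the values were 0.0050 (adjusted p = 0.991), -1.36 (adjusted p = 0.000449) and 0.81 (adjusted p = 9.84e-05). With quantile normalization Slc30a1 kept its direction but no longer passed (-0.35, adjusted p = 0.0645). Mt2 and Slc30a5 were alike in level, with log2 differences of -0.06 (95% interval -0.41 to 0.28) and -0.0022 (95% interval -0.15 to 0.14), and their signs turned under some of the other settings.

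**Figure D5:**
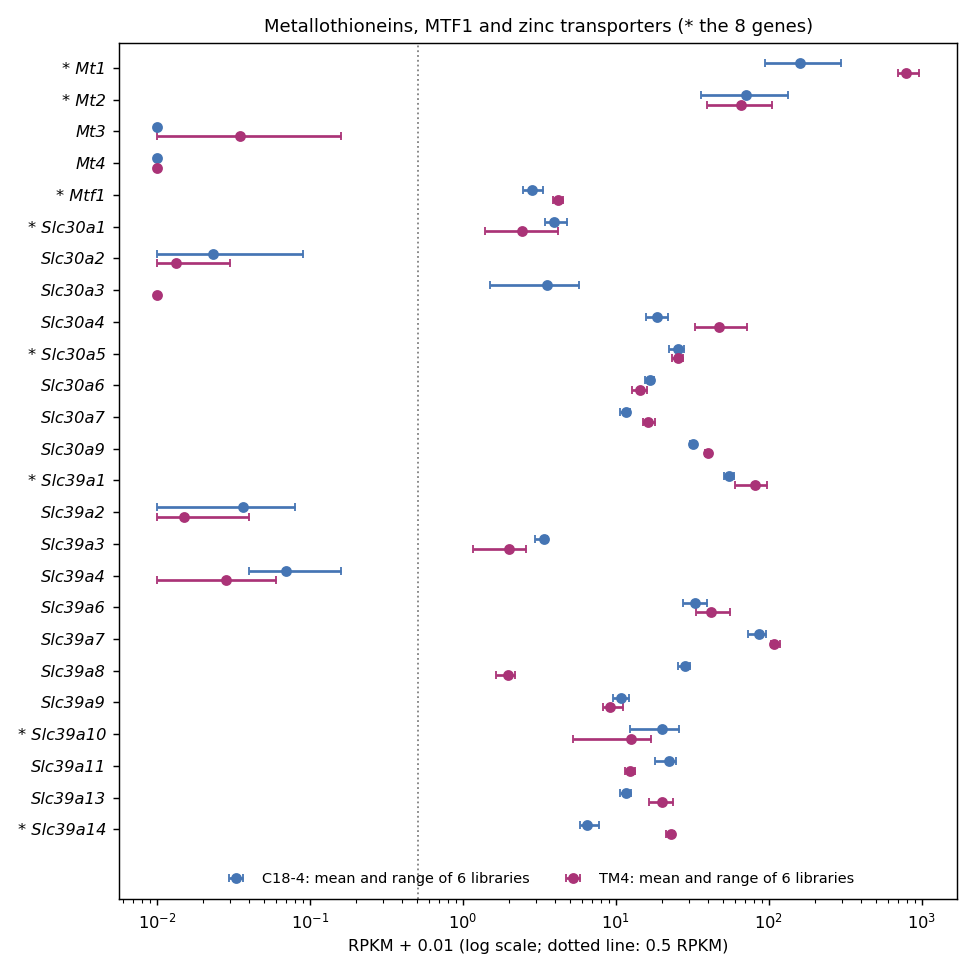
Mean and range over the 6 libraries of each line of RPKM + 0.01 (log scale) for the metallothioneins, Mtf1 and all SLC30 and SLC39 genes with values; asterisks mark the 8 genes and the dotted line stands at 0.5 RPKM. Mt1 and Slc39a14 are higher in TM4 cells and Slc39a8 in C18-4 cells without overlap, and Slc30a5 lies at the same level in both.

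RPKM is scaled by length, so levels can be ordered between genes. In C18-4 cells the order of mean RPKM was Mt1 (161.3), Mt2 (71.6), Slc39a1 (54.9), Slc30a5 (25.6), Slc39a10 (20.1), Slc39a14 (6.50), Slc30a1 (3.94) and Mtf1 (2.81). The ranges of Mt1 and Mt2, of Mt2 and Slc39a1, and of Slc30a5 and Slc39a10 overlapped. In TM4 cells it was Mt1 (793.4), Slc39a1 (81.0), Mt2 (65.7), Slc30a5 (25.5), Slc39a14 (23.0), Slc39a10 (12.7), Mtf1 (4.16) and Slc30a1 (2.43). There the ranges of Slc39a1 and Mt2, of Slc30a5 and Slc39a14, and of Mtf1 and Slc30a1 overlapped. Across the families the importer Slc39a7, which releases zinc from the endoplasmic reticulum, had the highest mean of any transporter, at 97.9 RPKM over 12 libraries, followed by Slc39a1 (68.0), Slc39a6 (37.5), Slc30a9 (36.2) and Slc30a4 (33.1). All 12 other transporters tested passed between the lines, 6 higher and 6 lower in TM4 cells, where 73% of all genes passed. The largest differences were those of Slc39a8, an importer of zinc, manganese and cadmium, at 25.45 to 30.40 RPKM in C18-4 cells and 1.63 to 2.20 RPKM in TM4 cells, and of Slc30a3, listed at 0 in TM4 cells.

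The genes nearest to Mt1 and to Mt2 in pattern were found by the root mean square difference of log2(RPKM + 0.1) over 12 libraries, each gene centred within its line, among 10007 genes with at least 1 RPKM in each line. For Mt1 they were Npr2 (0.102), Eno2 (0.144), Lamb2 (0.151), Hpse (0.152) and Plxnd1 (0.162), against a root mean square of 0.392 for Mt1 about its own line means. Npr2, a natriuretic peptide receptor, was 8.12 and 4.63 RPKM in replicate 3 of C18-4 shNC and shM5 against 4.75 to 4.77 and 3.04 to 3.05 RPKM in the other replicates, the same shape as Mt1. For Mt2 the nearest were Ugt1a6a (0.264), Xdh (0.267), Gm42102 (0.275), Igfbp4 (0.277) and Gm46911 (0.296), against 0.611 for Mt2 itself. Mt2 stood at rank 5669 for Mt1, and Mt1 at rank 227 for Mt2, with 0.434 between them. The neighbours in the genome were thus not the nearest by this measure, which counts the size of a change as well as its shape. A gene without any variation would stand at 0.392 from Mt1, so rank 5669 does not show an unlike shape. In C18-4 cells both genes were lower with shM5 and highest in replicate 3 of each group. All of these distances share the same 12 libraries.

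Genes of copper and iron handling and of the glucocorticoid response were read beside the zinc genes. Of 10 genes of copper handling 9 were tested and 0 passed in C18-4 cells with or without the block (limma, 3 and 1 at an unadjusted p under 0.05), with Atp7a, a copper pump, at 0.34 (adjusted p = 0.278, and 0.0597 with the block). In TM4 cells 0 of 9 passed in the 6 libraries (limma, 2 at an unadjusted p under 0.05) and 6 of 9 without shNC replicate 3, 3 higher and 3 lower, where 67.4% of all genes passed. Of 9 tested genes of iron handling, Steap3, a ferrireductase of the endosome, passed in C18-4 cells without the block, at -1.17 (adjusted p = 0.0475). It measured 2.10, 2.25 and 1.75 RPKM with shNC and 0.93, 0.85 and 0.75 RPKM with shM5. With the block 4 of the 9 passed, 1 higher and 3 lower, where 11.9% of all genes did. In TM4 cells Steap3 was 6.17, 6.65 and 13.55 RPKM with shNC and 12.33, 12.16 and 12.77 RPKM with shM5, again with shNC replicate 3 among the shM5 libraries, as for Slc39a10. Of 8 iron genes tested in TM4 cells 0 passed in the 6 libraries (limma, 2 at an unadjusted p under 0.05). Without shNC replicate 3, 5 of the 8 passed, where 67.4% of all genes did. Among them Steap3 and Tfrc, the transferrin receptor, rose by 0.94 and 0.73 on the log2 scale (adjusted p = 1.31e-05 and 8.01e-05), and Ncoa4, which carries ferritin to the lysosome, fell by 0.91 (adjusted p = 1.84e-06). Glucocorticoids also induce metallothioneins, and of 8 tested genes of the glucocorticoid response 0 passed in C18-4 cells without the block (limma, 1 at an unadjusted p under 0.05). With the block 2 of the 8 passed, where 11.9% of all genes did, Cdkn1c at -1.12 and Dusp1 at 0.45 (limma, adjusted p = 0.00568 and 0.0325). In TM4 cells 0 of 8 passed in the 6 libraries (limma, 3 at an unadjusted p under 0.05) and 5 without shNC replicate 3, 1 higher and 4 lower, again where 67.4% of all genes passed. Tsc22d3, a glucocorticoid-induced leucine zipper gene, measured 22.41, 21.24 and 7.16 RPKM in the TM4 shNC libraries and 5.48, 4.98 and 5.79 RPKM with shM5. Without shNC replicate 3 Tsc22d3 fell by 1.99 on the log2 scale, Klf9 by 1.14 and Nr3c1, the glucocorticoid receptor gene, by 0.74 (adjusted p = 1.15e-06, 4.53e-06 and 6.25e-06).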

How the data were processed

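RNA-seq of 12 libraries (4 groups of 3) was analysed. The authors enriched mRNA with oligo(dT), sequenced it on an Illumina HiSeq, aligned reads to reference genes with SOAPaligner, allowing at most 2 mismatches, and deposited RPKM values with 2 decimals for 17995 genes. The genome build, read length and read numbers were not given in the sources used here, and no step of whole reads could be read from the values, so the depth is unknown and no counting interval is given. Summed RPKM lay between 506413 and 540231 per library.

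Groups came from the labels. Values were tested as log2(RPKM + 0.1) with limma 3.58.1 (R 4.3.3; empirical Bayes with a mean-variance trend, two-sided, Benjamini-Hochberg over all genes tested), keeping genes whose mean over the libraries fitted reached 0.5 RPKM; a gene passed at an adjusted p below 0.05. On this scale, changes of low genes are understated. The fits were tested on simulated data. The study's own threshold (FDR of at most 0.001 and a log2 ratio of at least 1) was passed by 0 genes in either line without a block. In C18-4 cells same-numbered shNC and shM5 libraries deviated together (r = 0.439, 0.409 and 0.631 across genes), so the number was used as a block beside the main fit. Replicates 1 and 2 of unlike number were nearly as close (r = 0.341 and 0.345). The numbers thus mainly set replicate 3 apart, and a pairing of 1 with 1 and 2 with 2 is not shown. In TM4 cells same-numbered libraries deviated together only weakly (r = 0.0729, 0.0489 and 0.127). There r is taken about a shNC mean from which replicates 1 and 2 lie far on one side and replicate 3 on the other. By root mean square distance, shM5 replicate 3 lay nearer to shNC replicate 3 (0.202) than to shM5 replicates 1 and 2 (0.271 and 0.265). Whether replicate 3 shares a deviation in TM4 cells was not tested.

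The 8 genes and all gene lists were chosen with earlier results of these data known. Named were the 8 genes, the other metallothionein, SLC30 and SLC39 genes that passed or were among the 5 highest, up to 3 genes of each other list by adjusted p, and the 5 genes nearest in pattern to Mt1 and to Mt2. Slc30a8, Slc30a10, Slc39a5 and Slc39a12 were on the lists but had no values in the expression data used here. Promoters are RefSeq's (GRCm38.p6), and Mt1 and Mt2 transcripts GENCODE's. Alternatives were another pseudocount, filter, scaling or trend, the block, each library left out, both groups of a line reduced to their first 2 libraries, and the treatments apart.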

Additional observations from a re-analysis of the deposited data

Results flagged for a closer look

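The zinc importer gene Slc39a10 was flagged because its shM5 libraries lay below all shNC libraries in C18-4 cells and above all of them in TM4 cells. The shM5 effect in TM4 cells minus that in C18-4 cells was 1.59 on the log2 scale (SE 0.48), and the interaction did not pass limma's test over all genes (adjusted p = 0.182). In TM4 cells the lowest shM5 library and shNC replicate 3 were nearly equal, at 15.93 and 15.91 RPKM.

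Slc39a13, a zinc transporter of the early secretory pathway, was flagged for the same pattern. It measured 11.86, 12.40 and 12.61 RPKM with shNC and 11.19, 10.70 and 11.05 RPKM with shM5 in C18-4 cells. In TM4 cells the values were 16.81, 16.43 and 20.96 RPKM with shNC and 23.61, 22.07 and 21.43 RPKM with shM5. The interaction was 0.48 (SE 0.14) and did not pass (limma, adjusted p = 0.175). Single groups had 3 libraries, too few for a test of outlying samples.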

How the results depend on the processing

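How many of the 8 genes passed depended on the TM4 library shNC replicate 3 and on the block. Leaving out 1 library at a time gave 0 to 5 passing genes for shM5 in TM4 cells and 0 to 3 for the difference between the lines, and only leaving out that library gave more than 0. With the replicate block 3 passed in C18-4 cells and 0 in TM4 cells, where same-numbered libraries deviated together only weakly. With each line reduced to its first 2 libraries per group, 3 passed in C18-4 cells, 5 in TM4 cells and 3 for the difference (TM4 reduced). Over all genes, 68 passed in C18-4 cells, 1386 with the block, 4 without a filter, 29 after rescaling to 1 sum, 3029 with the first 2 libraries and 0 to 237 with 1 library left out; in TM4 cells 0 passed, 7433 without shNC replicate 3 and 8016 with the first 2 libraries. For the difference between the lines 12 passed, 27 with a pseudocount of 1, 21 without a filter, 4 after rescaling, 57 with quantile normalization, 22 without a trend, 2 with the block, 4056 with TM4 reduced, 25 with C18-4 reduced and 0 to 4477 with 1 library left out. Between the lines higher calls were 3433 of 8596, and 4439 of 8648 with quantile normalization.

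Signs turned mostly for values near 0, and in 1 setting for Slc39a10 between the lines, at -0.79 with both treatments averaged. With 1 library left out, Mt1 in TM4 cells ranged from -0.13 to 0.10 and Slc39a14 from -0.0022 to 0.078; the difference between the lines ranged from -0.038 to 0.40 for Mt2 and from -0.022 to 0.13 for Slc30a5, and the level in TM4 minus C18-4 cells from -0.14 to 0.052 for Mt2 and from -0.041 to 0.035 for Slc30a5. Mt1 was 0.091 and the difference of Mt2 -0.021 with TM4 reduced, and that of Slc30a5 was -0.0078 after rescaling. In the shM5 libraries alone the level difference was 0.033 for Mt2, 0.026 for Slc30a5 and 0.0050 for Slc39a10; with quantile normalization Slc30a5 was 0.073. The causes were not tested. Of 584 values recomputed for single genes, 538 kept direction and side of the threshold, 22 passed only under the alternative, 3 no longer passed and 21 changed sign.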

Other observations

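Chaperones and antioxidant genes gave further values beside the zinc genes. In C18-4 cells 0 of 8 tested endoplasmic reticulum chaperones and 0 of 7 genes of the oxidative stress response passed without the block (limma, 0 and 1 at an unadjusted p under 0.05). With the block 1 of each list passed, where 11.9% of all genes did. Hspa5 rose by 0.24 and Nqo1 by 0.37 on the log2 scale (limma, adjusted p = 0.0235 and 0.0244). In TM4 cells without shNC replicate 3, 7 of 8 chaperones passed (4 higher, 3 lower) and 7 of 7 genes of the oxidative stress response did (3 higher, 4 lower), where 67.4% of all genes did. Slc7a11, the cystine importer that feeds glutathione synthesis, measured 25.51, 26.28 and 3.55 RPKM in the TM4 shNC libraries and 2.78, 2.52 and 2.92 RPKM with shM5, the same libraries standing apart as for Slc39a10. All 12 genes of the ATF4 stress response fell in that fit. In C18-4 cells 3 of 12 passed with the block, where 11.9% of all genes did, with Cebpb and Vldlr lower and Atf3 higher.

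Markers of other cell types were summed in each group. Macrophage markers summed to 2.56 to 4.92 RPKM in C18-4 cells and 16.56 to 20.05 RPKM in TM4 cells. The TM4 sums were mostly Cd14, at 15.10 to 18.79 RPKM. Cd68 went the other way, at 1.83 to 4.24 RPKM in C18-4 cells and 1.06 to 1.56 RPKM in TM4 cells. Adgre1, Csf1r and Ptprc stayed at or below 0.1 RPKM in both lines. Leydig cell markers summed to at most 1.58 RPKM in all libraries. Peritubular and fibroblast markers summed to 307.3 to 349.7 RPKM with shNC and 337.9 to 444.5 RPKM with shM5 in C18-4 cells, and to 505.7 to 812.0 RPKM and 861.9 to 1033 RPKM in TM4 cells. The C18-4 sums were mostly Col1a1, at 287.2 to 385.7 RPKM. Of the 4 tested markers of this list 2 lay above 0 and 2 below in C18-4 cells, with a median log2 fold change of -0.14, and 0 passed without the block (limma, 1 at an unadjusted p under 0.05). With the block, where 11.9% of all genes passed, Acta2, the smooth-muscle actin, rose by 1.34 and Col1a1, a collagen, by 0.20 (limma, adjusted p = 0.000608 and 0.04998). Pdgfra and Pdgfrb were at -0.49 and -0.63 in that fit (adjusted p = 0.119 and 0.0684). In TM4 cells without shNC replicate 3, 4 of 5 rose, where 67.4% of all genes passed. The part of these markers in the zinc genes' values was not tested.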
